A study of Mus musculus with 20 samples.

Results

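The 10 genes described here, Pou5f1, Sox2, Nanog, Esrrb, Zfp42, Tbx3, Prdm14, Nr0b1, Sall4 and Tcl1, were taken from a named list of core pluripotency factors, and all 10 were found among the 23284 genes measured. They were followed through RIP-Seq of mouse embryonic stem cells (ESCs), in which RNA pulled down with an anti-Flag antibody (IP) was sequenced beside total RNA (input). The study asked which RNAs are bound by the Tet enzymes, dioxygenases that oxidise 5-methylcytosine. The 3 kinds of knock-in ESC line were all made with CRISPR-Cas9 by adding Flag, HA and Twin-Strep tags to the end of an endogenous Tet gene, so that no untagged line is among the samples: tagged Tet1 (2 replicates), tagged Tet2 (4 replicates) and tagged Tet2 without its RNA-binding domain, called Tet2ΔRBD (4 replicates). Each replicate gave 1 IP and 1 input library. The lines were picked as clones, the number of clones behind each line is not given in the sources used here, and all cells were grown in serum with leukemia inhibitory factor, the cytokine that holds mouse ESCs undifferentiated. Per the methods, the IP started from cytoplasmic extract and the input was total RNA of the cells, so that the compartment and the pull-down cannot be told apart in any ratio of IP to input. An IgG control was not analysed here.

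Oct4 (from Pou5f1) and Sox2 bind DNA side by side at the enhancers of many ESC genes, their own included, and Nanog joins them at most of these sites. Esrrb, Tbx3, Zfp42 (Rex1), Nr0b1 (Dax1), Sall4 and Prdm14 are further nuclear factors that hold mouse ESCs in the undifferentiated state or mark it, several of them downstream of leukemia inhibitory factor. Tcl1 stands apart from the label of transcription factor, since it encodes a co-activator of the kinase Akt that Oct4 and Esrrb regulate. In the account below, TPM is RSEM's transcript abundance, the length-corrected level of a gene within its library, so that levels of different genes can be set side by side.

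In the mm9 assembly the GENCODE vM1 annotation places Pou5f1 at chr17:35642982-35647721, Sox2 at chr3:34548927-34551383, Nanog at chr6:122657507-122664651, Esrrb at chr12:87702067-87862578 and Zfp42 at chr8:44380422-44392363. Tbx3 lies at chr5:120120678-120134733, Prdm14 at chr1:13103538-13117244, Nr0b1 at chrX:83437103-83441286, Sall4 at chr2:168573832-168593443 and Tcl1 at chr12:106454967-106460947. All are protein-coding. Exons of Tbx3 and Sall4 overlap those of Gm2301 and Gm14261 on the opposite strand, and whether the counting used strand is not given in the sources used here. The RNAs themselves differ in their pyrimidine stretches, which are shown because the study used spike-in RNAs made in vitro with motifs rich in U and C. The runs below come from annotated spliced transcripts, and none is taken as a site found by the study. The longest unbroken run of C and T in the annotated transcript is given in capitals for 5 members. Nr0b1 held 2 runs of its longest length, and the first is shown. Nanog and Sox2 had the lowest and Nr0b1 and Tcl1 the highest mean log2 TPM ratio of IP to input over all pairs. Tbx3 had the longest run. The order differs in single lines and in the fitted ratios below, where no member was called higher in IP. Sequences run 5′ to 3′ on the transcribed strand of mm9.
Nanog, 3′ UTR, chr6:122663609-122663637, + strand: agccaggTTCCTTCCTTCTTCCaaatatt
Sox2, 3′ UTR, chr3:34551186-34551214, + strand: tttaaggTTTTTCCCCCCTTTTattttcc
Nr0b1, coding part, chrX:83438224-83438253, + strand: ccatcaagagTTTCTTTTTCaagtgctgga
Tcl1, coding part, chr12:106455806-106455834, - strand: tagtcatgTCCTTTTTCCTCTacactggg
Tbx3, 5′ UTR, chr5:120121078-120121107, + strand: CTCTCTTTCTCTCTTTCTCTCCCTCCCTCT
The run measured 15 bases in Nanog and in Sox2, 13 in Tcl1, 10 in Nr0b1 and 30 in Tbx3. Among the 13109 tested genes with an annotated transcript the median was 14 bases, and 40.5% of them held a run of 15 bases or more, 91.1% one of 10 or more and 5.1% one of 30 or more. The runs of the other members were 11 bases in Pou5f1, 12 in Zfp42, 18 in Esrrb, 20 in Prdm14 and 28 in Sall4, and the longest runs lay in long transcripts (4856 bases in Tbx3, 5073 in Sall4).

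The 20 libraries held between 21078995 and 37576638 expected counts, and the members between 324 (Prdm14) and 101921 (Pou5f1) in a library, so that the spread between replicates and not counting set the precision. The numbering of the deposited data put the libraries into 3 sets: replicate 1 of Tet2 and Tet2ΔRBD in set A, their replicate 2 in set B, and their replicates 3 and 4 with all Tet1 libraries in set C. Libraries of 1 group differed far less within a set (chi-square per gene of 2.83 to 17.4, where sampling alone gives about 1) than between sets (145 to 582). The study describes its RIP-Seq as done in biological duplicate or more. Which of the replicates came from separate cultures is not given in the sources used here, so p-values may in part measure technical spread. The 7 other ESC markers examined, led by Dppa5a, summed to between 11600 and 15300 TPM in every input, while those of mesoderm summed to at most 1.39 TPM, trophectoderm to 1.58 to 6.07, neural cells to 9.04 to 21.0 and fibroblasts to 10.9 to 64.4. Primitive endoderm markers summed to between 47.4 and 50.6 TPM in Tet1 input, 13.2 and 118 in Tet2 input and 62.9 and 150 in Tet2ΔRBD input, with none of the 6 at 0.

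Pou5f1 was by far the most abundant member, with an input level of 2635 TPM ± 384 (SD, n = 10), above that of 99.5% of the 13710 genes tested. Sox2 (285 TPM ± 110), Esrrb (241 ± 85.0) and Nanog (240 ± 45.0) came next, all above at least 95.9% of tested genes. Sall4 (126 ± 38.3), Tcl1 (101 ± 19.7), Nr0b1 (69.9 ± 22.2), Zfp42 (50.7 ± 16.4) and Tbx3 (41.2 ± 16.8) lay lower, and Prdm14 was at 10.6 TPM ± 2.24, above 52.7% of tested genes. In all 10 input libraries Pou5f1 exceeded Sox2 (mean difference 3.27 ± 0.64 SD on the log2 scale), Nanog exceeded Sall4 (0.96 ± 0.39) and Tbx3 exceeded Prdm14 (1.87 ± 0.54). Tcl1 exceeded Nr0b1 in 9 of 10 inputs, by 0.60 ± 0.59. The other neighbours in this order did not differ beyond their spread within libraries: Sox2 and Esrrb (0.23 ± 0.48), Esrrb and Nanog (-0.04 ± 0.39), Sall4 and Tcl1 (0.30 ± 0.49), Nr0b1 and Zfp42 (0.47 ± 0.94) and Zfp42 and Tbx3 (0.32 ± 1.09). Levels moved with the library set in several members. Nr0b1 was at 31.1 and 27.8 TPM in the 2 inputs of set A and between 70.9 and 93.55 in the other 8, whereas Sox2 was highest in set A (463 and 508 TPM, against at most 296 elsewhere). Zfp42 reached its lowest input level, 15.3 TPM, in replicate 2 of Tet2ΔRBD, and lay between 39.1 and 75.8 in the other 9 inputs.

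**Figure D1:**
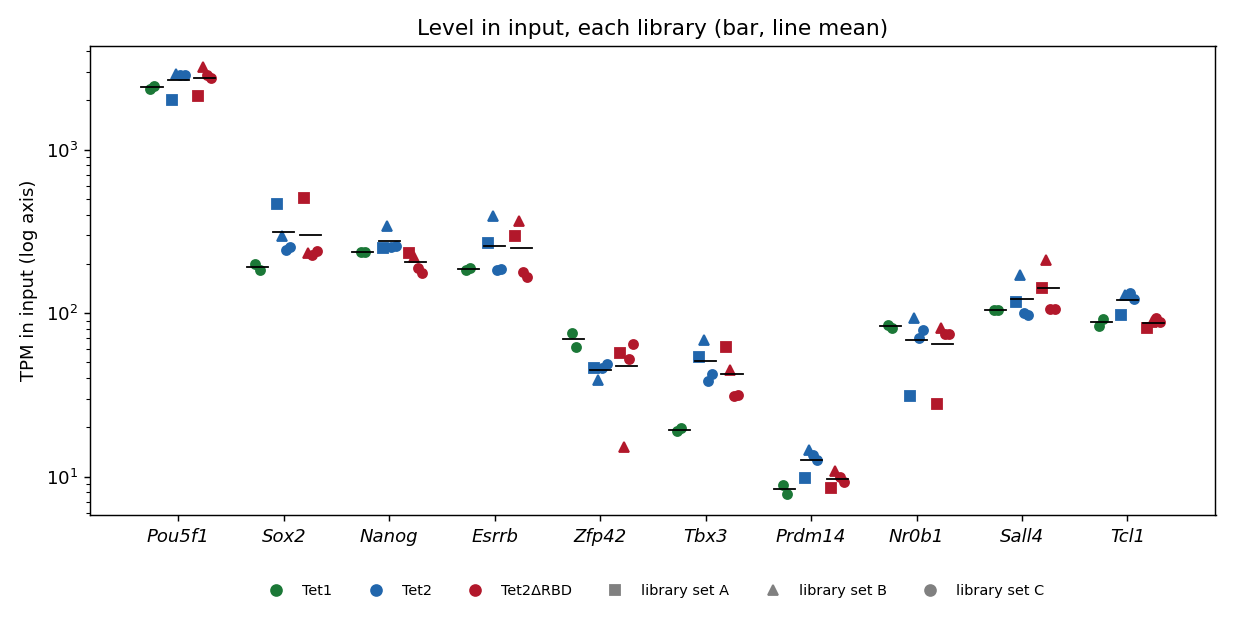
Level of each of the 10 members in the 10 input libraries, in TPM on a log axis. Colour gives the line, marker shape the library set and the bar the mean of a line; Pou5f1 lies at 2000.28 TPM or more in every library and Prdm14 at 14.5 or less.

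The question put to the IP libraries was which RNAs were recovered with each tagged Tet above their level in input. Nanog, the homeodomain factor that tips ESCs towards self-renewal, was recovered below its input in all 3 lines. Its level was 145 and 155 TPM in Tet1 IP against 235 and 235 in the inputs of the same replicates. In Tet2 it was 114, 199.96, 156 and 142 TPM in IP against 249.98, 343, 255 and 259 in input. In Tet2ΔRBD it was 135, 131, 109.95 and 115 TPM in IP against 234, 221, 190.16 and 176.5 in input. IP and input did not overlap in any line, and IP was the lower in 10 of 10 pairs, by -0.60 to -1.12 in log2(IP/input) of TPM + 1. Of all tested genes, 30.1%, 11.9% and 8.56% were below input in every pair of Tet1, Tet2 and Tet2ΔRBD. The share without overlap was not counted. The fitted log2 ratio of counts, estimated in edgeR with the quasi-likelihood test and Benjamini-Hochberg adjustment, was -0.80 ± 0.16 (SE) in Tet1 (adjusted p = 0.023), -1.19 ± 0.11 in Tet2 (adjusted p = 0.00012) and -1.02 ± 0.11 in Tet2ΔRBD (adjusted p = 0.00052), or 0.576, 0.439 and 0.494 times input. Of all genes tested, 3.7%, 1.8% and 1.6% had a lower ratio in these lines.

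The Nanog value carries a limit of identity. Nanogpd, a near copy of Nanog with its own entry in the deposited tables, was at 4.64 to 80.05 TPM in the inputs and 0.74 to 74.4 TPM in the IPs, and reads of the pair may have been split between the entries. With the counts of both added, a setting chosen after the data were seen, edgeR's quasi-likelihood test gave -0.76 (adjusted p = 0.018), -1.06 (adjusted p = 7.8e-05) and -0.97 (adjusted p = 0.00028) for Tet1, Tet2 and Tet2ΔRBD. The Tet1 call rests on both Tet1 replicates: with either left out, edgeR's adjusted p missed the threshold (up to 0.57) while the ratio stayed between -0.81 and -0.79, and a fit without the pairing gave -0.80 with an adjusted p of 0.58.

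Sox2, the HMG-box partner of Oct4, was also recovered below input, less far than Nanog. In Tet1 it was at 163 and 161 TPM in IP against 201 and 183 in input. In Tet2 it was at 393, 306.5, 192 and 191 TPM in IP against 463, 296, 242 and 255 in input, and in Tet2ΔRBD at 391, 157, 218 and 213 TPM in IP against 508, 234, 228 and 241 in input. IP was below input in 9 of 10 pairs, the exception being replicate 2 of Tet2 (0.05 in log2). Across replicates, IP and input overlapped in Tet2 and Tet2ΔRBD, and in both lines each was highest in set A. The fitted log2 ratio was -0.55 ± 0.10 in Tet2 (adjusted p = 0.0024) and -0.57 ± 0.10 in Tet2ΔRBD (adjusted p = 0.0040) by the same edgeR test, and -0.39 ± 0.14 in Tet1, where the adjusted p was 0.12. Both calls were lost without the pairing (edgeR's adjusted p = 0.39 and 0.52) and by limma on log2(TPM + 1) (-0.23, adjusted p = 0.095, and -0.30, adjusted p = 0.058).

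No other member passed the test in any line, and none was called higher in IP. For Pou5f1, the POU-domain factor Oct4, the input and IP levels nearly coincided. In Tet1 it was at 2284 and 2405 TPM in IP against 2358 and 2449.97 in input. In Tet2 it was at 2193, 2652, 3109 and 3063 TPM in IP against 2000.28, 2901, 2843 and 2880.5 in input, and in Tet2ΔRBD at 2113, 2834, 3127 and 3214 TPM in IP against 2117, 3191, 2858 and 2747 in input. IP lay above input in 5 of 10 pairs, and the fitted log2 ratios of -0.18 ± 0.16, -0.25 ± 0.12 and -0.23 ± 0.12 in Tet1, Tet2 and Tet2ΔRBD had edgeR adjusted p-values of 0.56, 0.11 and 0.18. Members past the threshold in the lower direction thus numbered 1 of 10 in Tet1, 2 of 10 in Tet2 and 2 of 10 in Tet2ΔRBD, against 3.18%, 18.5% and 12.1% of all tested genes. In the higher direction there were 0 of 10 in each line, against 2.72%, 14.6% and 7.4% of tested genes. At an unadjusted p under 0.05, edgeR had 2, 3 and 2 members in Tet1, Tet2 and Tet2ΔRBD, all of them with a ratio below 0, against 23.5%, 45.0% and 35.4% of all tested genes. DESeq2 called 1, 2 and 2 members, against 11.5%, 35.9% and 23.9% of the 13710 genes. Limma called 1, 4 and 1 members, against 4.64%, 43.1% and 28.1% of these genes, among them Esrrb (0.35, adjusted p = 0.049), Nr0b1 (0.38, adjusted p = 0.0095) and Tcl1 (0.37, adjusted p = 0.020) as higher in Tet2 IP on the TPM scale.

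Zfp42, a zinc-finger gene that marks naive ESCs, split by library set rather than by line. In sets A and B its IP exceeded input in 4 of 4 pairs, by 0.34 and 1.46 in Tet2 and by 0.60 and 1.05 in Tet2ΔRBD on the log2 scale. In set C its IP was below input in 6 of 6 pairs, by -0.09 to -0.51. The levels behind these ratios were 58.6, 109, 38.5 and 35.0 TPM in Tet2 IP against 46.2, 39.1, 46.0 and 48.65 in input, 86.8, 32.75, 46.0 and 44.9 TPM in Tet2ΔRBD IP against 56.75, 15.3, 52.5 and 64.4 in input, and 58.6 and 58.4 TPM in Tet1 IP against 75.8 and 62.3 in input. Over all sets the fitted log2 ratios of Zfp42 were -0.38 ± 0.42, -0.05 ± 0.30 and -0.03 ± 0.30, the widest errors of any member. Within set C alone, edgeR's quasi-likelihood test gave -0.42 (adjusted p = 0.0013), -0.57 (adjusted p = 0.00019) and -0.63 (adjusted p = 0.0001) in Tet1, Tet2 and Tet2ΔRBD.

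The remaining members lay near the bulk of genes, and the side of 0 on which they fell depended on the scale. TPM ratios were shifted upward as a whole: the median log2(IP/input) of tested genes was between 0.03 and 0.34 in the 10 pairs, whereas the medians of the fitted ratios were -0.036, 0.003 and -0.015 in Tet1, Tet2 and Tet2ΔRBD. Esrrb, an orphan nuclear receptor, had mean TPM ratios of -0.05 in Tet1 (n = 2), 0.355 ± 0.17 (SD, n = 4) in Tet2 and 0.28 ± 0.39 in Tet2ΔRBD and fitted ratios of -0.20, 0.04 and 0.01. Tbx3, a T-box factor, had mean TPM ratios of -0.04, 0.08 ± 0.20 and 0.08 ± 0.31, and fitted ratios of -0.20, -0.23 and -0.20. Prdm14, which holds DNA methylation low in ESCs, had -0.08, 0.135 ± 0.205 and 0.18 ± 0.38 on the TPM scale and -0.23, -0.17 and -0.09 fitted. Nr0b1, a nuclear receptor without a DNA-binding domain, had 0.155, 0.38 ± 0.09 and 0.26 ± 0.20 on the TPM scale and 0.01, 0.07 and -0.01 fitted. Sall4, a zinc-finger partner of Oct4, had 0.03, 0.19 ± 0.09 and 0.20 ± 0.43 on the TPM scale and -0.15, -0.08 and -0.10 fitted. Tcl1 had 0.27, 0.37 ± 0.19 and 0.17 ± 0.25 on the TPM scale and 0.13, 0.05 and -0.11 fitted. Nr0b1 and Tcl1 were above input in 9 of 10 pairs each on the TPM scale, the exception being replicate 2 of Tet2ΔRBD (-0.01 and -0.11).

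**Figure D2:**
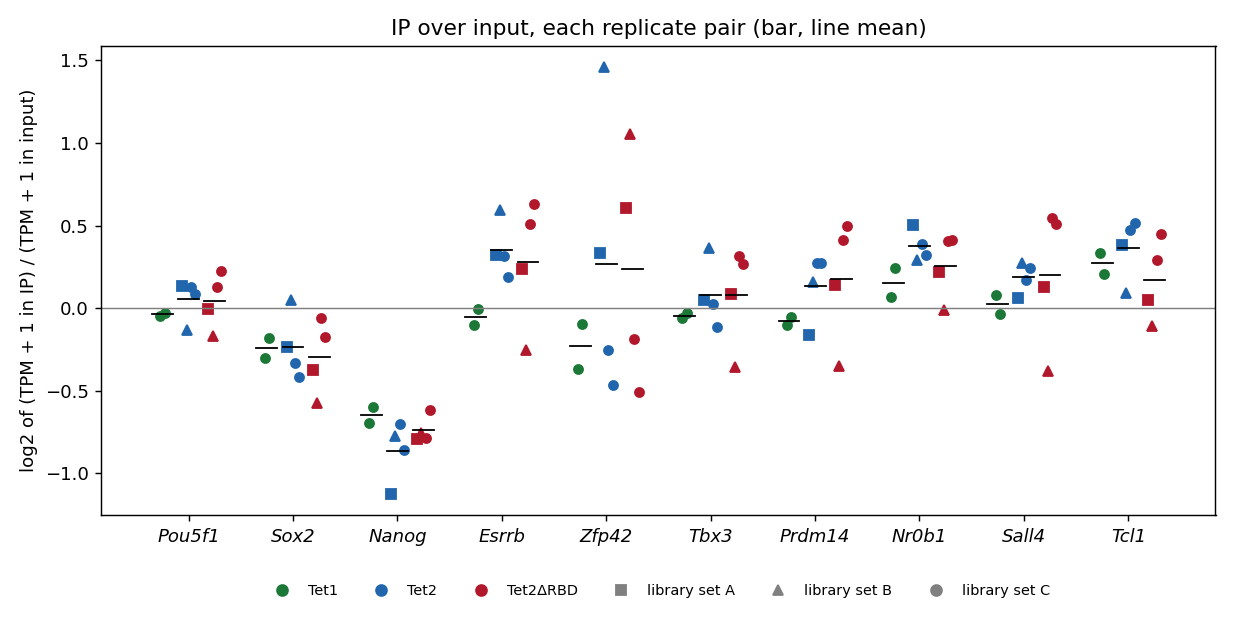
Log2 ratio of IP to input, from TPM + 1, for each of the 10 replicate pairs and each member. Colour gives the line, marker shape the library set and the bar the mean of a line; Nanog lies below 0 in 10 of 10 pairs, and Zfp42 above 0 in the 4 pairs of sets A and B and below 0 in the 6 pairs of set C.

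By the rule of the study's methods, under which an RNA counts as Tet-enriched when its TPM + 1 is higher in IP than in input, read here as higher in every replicate of a line, 2 members were enriched in Tet1 (Nr0b1 and Tcl1), 4 in Tet2 (Esrrb, Nr0b1, Sall4 and Tcl1) and 0 in Tet2ΔRBD. All tested genes met the rule in 50.9%, 46.5% and 31.8% of cases. The mirror rule, below input in every replicate, took in 7 members in Tet1, all except Nr0b1, Sall4 and Tcl1, against 30.1% of tested genes. It took in Nanog in Tet2 (11.9% of tested genes) and Sox2 and Nanog in Tet2ΔRBD (8.56% of tested genes). The 0 in Tet2ΔRBD hung on 1 pair: in its replicate 2 all 10 members except Zfp42 were below input, and without that pair 6 members (Esrrb, Tbx3, Prdm14, Nr0b1, Sall4 and Tcl1) were above input in each of the other 3. Tested genes as a whole moved the same way, with 52.7% above input in replicate 2 against 76.9%, 72.9% and 66.0% in replicates 1, 3 and 4. The share of genes above input in all 3 of these was not counted, so the 6 are not read as particular to the members. When the ratios were centred on the median of expressed genes, Esrrb alone of the 4 members stayed above in Tet2 (25.4% of tested genes did), and Pou5f1, Sox2, Nanog and Tbx3 were below in every Tet2 replicate (28.3% of tested genes were). The rule is not a test, and a count that must hold in 2 replicates is more easily met than one that must hold in 4.

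**Figure D3:**
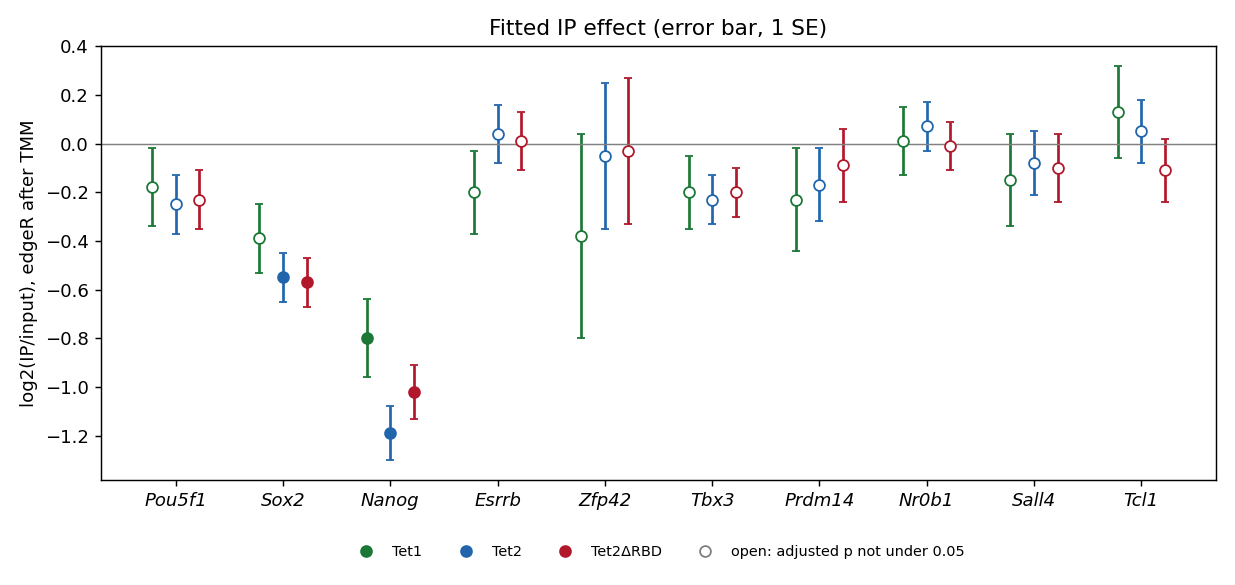
Fitted log2(IP/input) of each member in the 3 lines, by edgeR after TMM normalization, with error bars of 1 SE. Filled points had an adjusted p under 0.05: Nanog in all 3 lines and Sox2 in Tet2 and Tet2ΔRBD.

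Within set C, the set that holds libraries of all 3 lines, more members passed edgeR's quasi-likelihood test, with a smaller spread between replicates. In Tet1, 8 of 10 members passed, all lower in IP, Nr0b1 and Tcl1 being the members that did not. In Tet2, Nanog (-0.99), Sox2 (-0.59), Zfp42 (-0.57) and Tbx3 (-0.25) were lower and Tcl1 (0.29) higher. In Tet2ΔRBD, Nanog (-0.98), Zfp42 (-0.63) and Sox2 (-0.40) were lower and Esrrb (0.30) and Sall4 (0.25) higher. In the same set 6260, 6670 and 6568 of all genes passed in Tet1, Tet2 and Tet2ΔRBD, in either direction, against 809, 4540 and 2674 of 13710 with all sets. Passing was thus common among all genes within set C, and the member counts there are not read as particular to the members. Shares of all genes by direction were not counted within set C.

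The IP effect went with the coding length of an RNA across all genes, a property the choice of members did not use. Over 13109 tested genes with an annotated transcript, a comparison chosen after the data were seen, Spearman's rho between coding length and fitted ratio was 0.35 in Tet1, 0.57 in Tet2 and 0.47 in Tet2ΔRBD, given as a description across genes that share libraries and are not independent. Of the 10 members, 6 had a coding length below the median of 1389 bases. Nanog (918 bases), Sox2 (960) and Zfp42 (867) belonged to the same of 10 equal groups of genes by coding length (750 to 969 bases), whose median ratio was -0.14, -0.22 and -0.16 in Tet1, Tet2 and Tet2ΔRBD. Nanog was low for that length as well, with 4.8%, 1.3% and 2.0% of that group below it, and Sox2 stood above 24.3%, 19.0% and 13.3% of it. Tcl1, the shortest at 582 bases, stood above 79.3%, 78.9% and 62.3% of its length group. The long members were low for their length: Tbx3 (2226 bases) stood above 23.7%, 11.4% and 16.2% and Sall4 (3204 bases) above 22.9%, 14.1% and 16.4% of their length groups. Pou5f1 (1059), Esrrb (1365), Nr0b1 (1419) and Prdm14 (1686) lay between 21.8% and 58.9%, and Zfp42 stood above 25.4%, 65.1% and 65.7% of its length group. The part of coding length in the members' ratios was not tested.

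**Figure D4:**
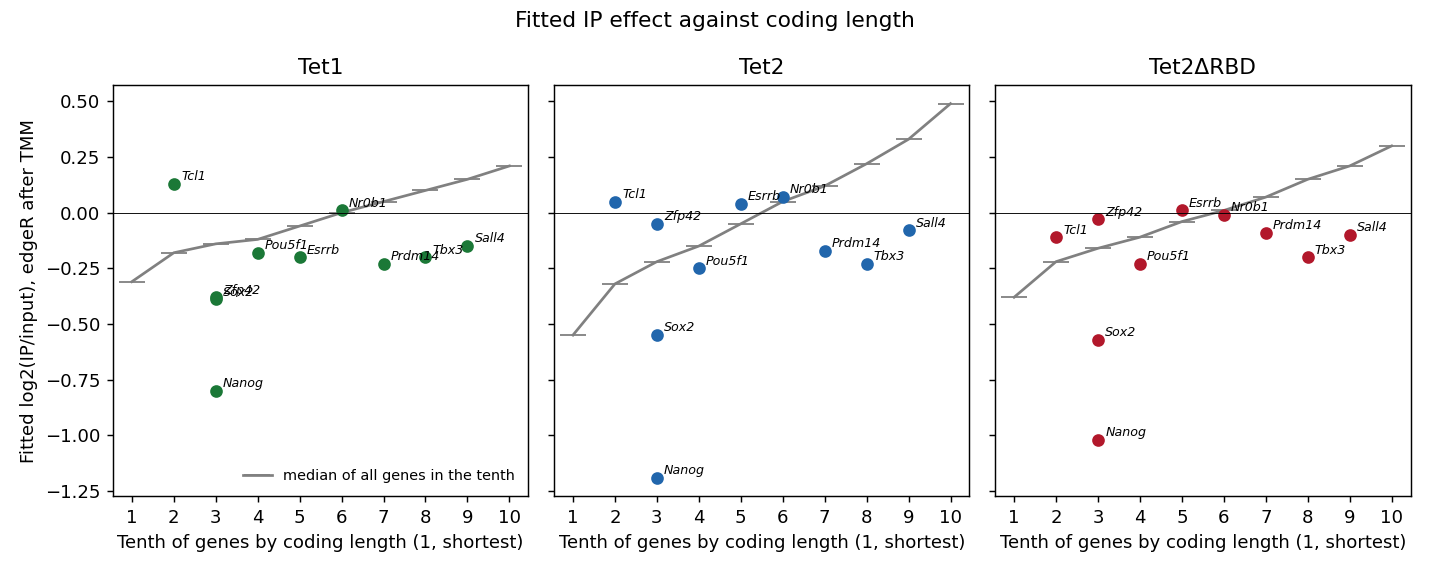
Fitted log2(IP/input) of each member against its group of genes by coding length, in a panel for each line. The grey line joins the medians of the length groups, which run from -0.31 to 0.21 in Tet1, -0.55 to 0.49 in Tet2 and -0.38 to 0.30 in Tet2ΔRBD; Nanog lies far below it in each panel.

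To ask whether recovery of a member differed once the RNA-binding domain of Tet2 was deleted, the fitted ratio in Tet2ΔRBD was subtracted from that in Tet2. No member passed edgeR's quasi-likelihood test (lowest adjusted p = 1), 0 of 10 had an unadjusted p under 0.05 (3.03% of all genes did), and DESeq2 and limma called 0 of 10 as well. Among all genes, 0.0219% passed in either direction. The 95% intervals of the log2 difference were -0.52 to 0.17 for Nanog, -0.28 to 0.33 for Sox2, -0.39 to 0.34 for Pou5f1, -0.35 to 0.41 for Esrrb and -0.96 to 0.93 for Zfp42. For Tbx3 the interval was -0.36 to 0.28, for Prdm14 -0.56 to 0.38, for Nr0b1 -0.22 to 0.38, for Sall4 -0.39 to 0.45 and for Tcl1 -0.25 to 0.57. Within set C alone no member passed edgeR's adjusted threshold either, but 4 of 10 had an unadjusted p under 0.05, all with the lower ratio in Tet2: Tbx3 (-0.27, adjusted p = 0.23), Sall4 (-0.27, adjusted p = 0.26), Esrrb (-0.25, adjusted p = 0.34) and Sox2 (-0.19, adjusted p = 0.36). The 3.03% above belongs to the fit of all sets and is no background for these 4. Within set C the share of all genes at that level was not counted, and 91 genes passed the adjusted threshold, against 3 with all sets.

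Between Tet1 and Tet2 the IP effects were also not told apart for any member. Nanog had the largest difference, 0.39 ± 0.19 (adjusted p = 0.94 by edgeR's quasi-likelihood test), with a 95% interval of -0.03 to 0.81, Tet1 IP being the less depleted. Among the others, the intervals ran from -0.21 to 0.54 for Sox2 and from -0.37 to 0.51 for Pou5f1, and the widest was that of Zfp42, -1.47 to 0.81. In edgeR 0% of all 13710 genes passed, although 517 had an unadjusted p under 0.05, and DESeq2 and limma called 13 and 6 genes, none of them a member. Both comparisons share the Tet2 samples.

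The input libraries show how far the lines differed in the members before any pull-down. Against Tet2ΔRBD, the Tet2 line had more Nanog and Tcl1. Nanog was at 249.98, 343, 255 and 259 TPM in Tet2 input and at 234, 221, 190.16 and 176.5 TPM in Tet2ΔRBD input. Tcl1 was at 97.1, 129, 134 and 122 TPM in Tet2 input and at 80.9, 88.5, 93.2 and 87.8 TPM in Tet2ΔRBD input. Neither pair of groups overlapped, and the share of all genes without overlap was not counted. The fitted log2 difference, with the library set as a term, was 0.43 ± 0.08 for Nanog (adjusted p = 0.027) and 0.46 ± 0.08 for Tcl1 (adjusted p = 0.026) by edgeR's quasi-likelihood test, so that 2 of 10 members were called higher in Tet2, against 1.79% of 13310 tested genes, and 0 of 10 lower, against 1.35%. Prdm14 (0.38, adjusted p = 0.075) and Tbx3 (0.29, adjusted p = 0.17) had unadjusted p-values in edgeR of 0.0038 and 0.022. With the replicate number as a block, which the paired numbers allow, neither call held (0.43, adjusted p = 0.17, and 0.46, adjusted p = 0.15, by edgeR's test), and leaving out 1 of 6 replicates (either of Tet1, or replicate 3 or 4 of Tet2 or of Tet2ΔRBD) ended both. Primitive endoderm markers were lower in Tet2 than in Tet2ΔRBD input in each of the 4 replicates, with sums of 118, 51.3, 13.2 and 13.2 TPM against 150, 87.2, 62.9 and 67.3, and their part in this difference was not tested.

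Tet1 input stood lower than Tet2 input in 4 members. Tbx3 was at 18.9 and 19.85 TPM in Tet1 input, against 53.6, 68.9, 38.45 and 42.65 in Tet2 input, and at 62.1, 45.2, 31.2 and 31.6 in Tet2ΔRBD input. Its level in Tet1 was thus below that in all 8 other inputs. Prdm14 was at 8.84 and 7.86 TPM in Tet1 input and at 9.81, 14.5, 13.5 and 12.7 in Tet2 input. Tcl1 was at 83.5 and 92.5 TPM in Tet1 input, and Sox2 at 201 and 183, in both cases below every Tet2 input. The share of all genes set apart in this way was not counted. In Tet2ΔRBD input Prdm14 was at 8.57, 10.8, 9.97 and 9.31 TPM and Tcl1 at 80.9, 88.5, 93.2 and 87.8. Tet1 and Tet2ΔRBD inputs thus overlapped in Prdm14 and Tcl1, so a low Tet1 and a high Tet2 level are not told apart there. Sox2 was at 508, 234, 228 and 241 TPM in Tet2ΔRBD input, all above Tet1. Both input comparisons share the Tet2 inputs. The fitted log2 differences of Tet1 from Tet2 input were -1.07 ± 0.14 for Tbx3 (adjusted p = 0.00098), -0.67 ± 0.13 for Prdm14 (adjusted p = 0.0057), -0.56 ± 0.11 for Tcl1 (adjusted p = 0.0049) and -0.42 ± 0.09 for Sox2 (adjusted p = 0.0069) by edgeR's quasi-likelihood test. The 4 of 10 lower members stand against 14% of tested genes called lower, and the 0 of 10 higher against 17.5% called higher. Within set C the 4 differences were -1.18, -0.77, -0.65 and -0.49, and Nanog (-0.24), Pou5f1 (-0.37) and Zfp42 (0.43) passed edgeR's test too. In that fit 6477 of all genes passed, in either direction, against 4191 with all sets. The member count within set C is thus not read as particular to the members. Without the library set in the fit no member passed, and without Tet1 replicate 2 the count fell to 2 (Tbx3 and Tcl1), without Tet1 replicate 1 to 3, and without replicate 2 of Tet2 or of Tet2ΔRBD it rose to 6. Tet1 was measured in set C alone, and a line and its clone cannot be told apart. In bulk RNA, fewer expressing cells and less RNA per cell cannot be told apart either. Primitive endoderm markers summed to 13.2 and 13.2 TPM in replicates 3 and 4 of Tet2 input, 47.4 and 50.6 in Tet1 input and 62.9 and 67.3 in replicates 3 and 4 of Tet2ΔRBD input. The 4 fibroblast markers, mostly Thy1, summed to 14.6 and 16.4 TPM in Tet1 input against 42.8 and 42.3 in replicates 3 and 4 of Tet2 input, and the part of either list in these differences was not tested.

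**Figure D5:**
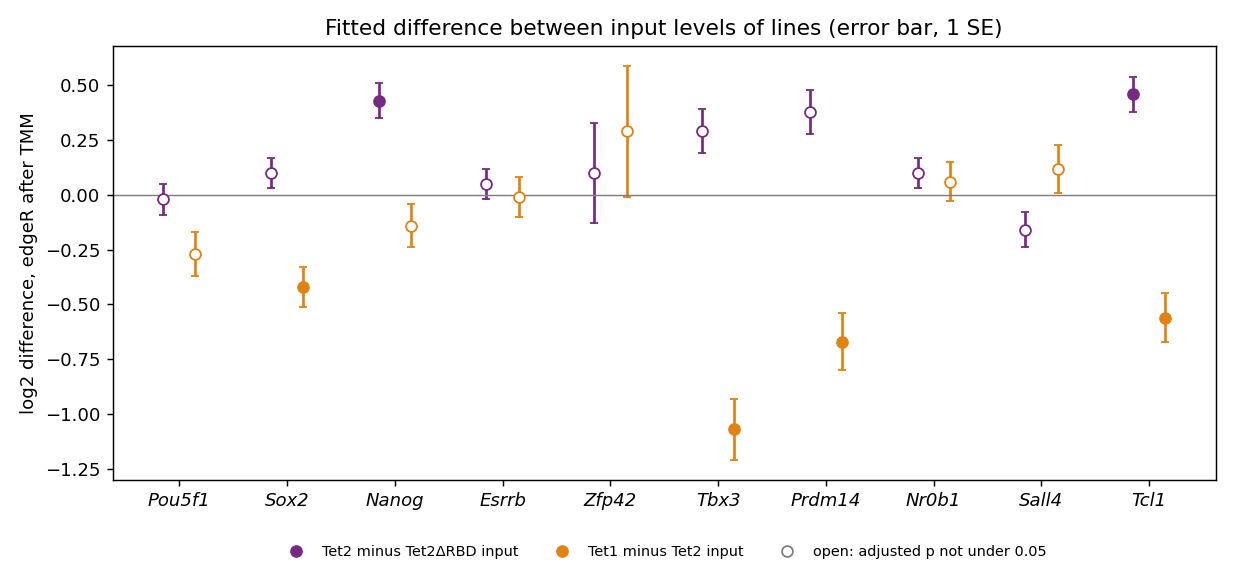
Fitted log2 difference of input level between lines for each member, with error bars of 1 SE. Filled points had an adjusted p under 0.05: Nanog and Tcl1 for Tet2 minus Tet2ΔRBD, and Sox2, Tbx3, Prdm14 and Tcl1 for Tet1 minus Tet2.

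As the surroundings of the members, 30 other genes of the pluripotency network were examined, and all were expressed highly enough to be tested. Of these, edgeR's quasi-likelihood test called 1 higher and 4 lower in Tet1 IP, 4 higher and 5 lower in Tet2 IP, and 1 higher and 6 lower in Tet2ΔRBD IP, with a median log2 ratio of 0.025, 0.002 and -0.049 beside -0.036, 0.003 and -0.015 over all tested genes. Of all tested genes, 2.72%, 14.6% and 7.4% were called higher and 3.18%, 18.5% and 12.1% lower in Tet1, Tet2 and Tet2ΔRBD. Sox15, an HMG-box gene like Sox2, was lower in all 3 (-0.74, adjusted p = 0.026, -1.04, adjusted p = 0.00015, and -0.81, adjusted p = 0.0010, by edgeR). Otx2, a factor of the primed state (-0.70, -0.87 and -0.73), Klf5, a Krüppel-like factor (-0.64, -0.55 and -0.57), and Tcf7l1, a repressor of the network in the Wnt pathway (-0.80, -0.55 and -0.58), were lower in all 3 as well. Nr5a2, a nuclear receptor that activates Pou5f1, was the gene called higher in all 3 (1.64 ± 0.40, 1.19 ± 0.27 and 1.12 ± 0.28). In Tet2 the test also called Klf2 (1.13 ± 0.10) and the co-activator Ncoa3 (1.84 ± 0.21), which works with Esrrb as higher. Klf2 was the 1 gene of the list whose IP effect differed between Tet2 and Tet2ΔRBD (1.33 ± 0.14, edgeR's adjusted p = 0.012). That call was lost in 7 of the 10 fits that left out 1 replicate, with an adjusted p of up to 0.14.

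Of 11 target genes of Oct4 and Sox2, edgeR called 0 higher in any IP and 1, 4 and 5 lower in Tet1, Tet2 and Tet2ΔRBD, with medians of -0.183, -0.226 and -0.236. Of all tested genes, 3.18%, 18.5% and 12.1% were called lower and 2.72%, 14.6% and 7.4% higher, with medians of -0.036, 0.003 and -0.015. Dppa2 was lower in all 3 (-0.74, -1.13 and -0.89), Dppa3, a maternal-effect gene, in Tet2 (-1.25) and Tet2ΔRBD (-0.79), Dppa5a in Tet2 (-0.79) and Tet2ΔRBD (-0.81), Tdgf1, a Nodal co-receptor, in Tet2 (-0.46) and Tet2ΔRBD (-0.43), and Utf1, a chromatin factor, in Tet2ΔRBD (-0.40). Among 36 paralogs of the members, 26 were expressed highly enough to be tested, and edgeR called 1 higher and 1 lower in Tet1, 3 higher and 2 lower in Tet2 and 3 higher and 2 lower in Tet2ΔRBD, with medians of -0.029, 0.105 and 0.061. The shares and medians of all tested genes given for the targets are the background here too. Esrra, the paralog of Esrrb, was higher in Tet2 (0.72) and Tet2ΔRBD (0.55), while Esrrb did not pass. These lists were described by their counts and medians, and nothing particular to them was tested.

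Among 8441 tested genes with an input level of at least 5 TPM, those whose 10 pair ratios were closest to a member's were searched for Pou5f1, Sox2 and Nanog, by the root mean square difference in log2(IP/input). The closest to Nanog were Ube2d3 (0.138), Ndfip2 (0.139) and Pcbp2 (0.139), with mean ratios of -0.82, -0.74 and -0.77 over the 10 pairs. The closest to Sox2 were Nhlrc2 (0.107), Plin3 (0.110) and 2410002F23Rik (0.114), and the closest to Pou5f1 were Suclg1 (0.072), Cdca3 (0.072) and 2610528J11Rik (0.079). Within the 9 other members the nearest to Nanog was Sox2, at a root mean square difference of 0.552, and Tbx3 was nearest to Sox2 (0.329) and to Pou5f1 (0.195).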

How the data were processed

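RIP-Seq was performed on 10 IP and 10 input samples of tagged ESC lines. Per the labels, the authors used FastQC, Trimmomatic, Bowtie2 and RSEM with the mm9 genome, without versions. The authors deposited, for each library, expected counts and TPM of 23284 genes. TPM depends on all genes of its library, so ratios of TPM shift together, and expected counts share reads between near copies by estimation. Expected counts were rounded, genes under 1 CPM in all but 1 library were dropped (13710 kept, 13310 in inputs alone), and edgeR 4.0.16 in R 4.3.3 was used with TMM normalization, its quasi-likelihood test and Benjamini-Hochberg adjustment at 0.05. IP effects were fitted per line blocked on the pair (IP with its own input), over all 20 libraries, and input levels with line and library set. The pairing comes from the replicate numbers: deviations from group means correlated between the IP and input of a number (r of 0.27 in Tet1, 0.62 to 0.86 in Tet2 and 0.58 to 0.84 in Tet2ΔRBD), and between Tet2 and Tet2ΔRBD inputs (0.70 to 0.90). Within set C, unlike numbers correlated as well. IP of replicate 4 had r of 0.797 (Tet2) and 0.734 (Tet2ΔRBD) with input of replicate 3, against 0.784 and 0.584 with its own. Tet2 input 4 had 0.827 with Tet2ΔRBD input 3, against 0.702 with input 4. These values thus follow the library set and do not tell the pairs of replicates 3 and 4 apart. Pair ratios used TPM + 1. Alternatives were DESeq2 1.42.0, limma 3.58.1, no filter, other scalings, no block, set C alone and leaving out each replicate. Totals ran from 21078995 to 37576638 expected counts. Named genes were the members, at most 4 called genes per list and comparison by smallest p, and the 3 genes most like Pou5f1, Sox2 and Nanog; further called list genes were named after their values were seen. The members and lists were chosen with earlier results of these data known. The fits were also run on simulated counts that held no pair or library-set effects. That run cannot show how the fits deal with such effects. Python 3.11.15, pandas 2.3.3 and matplotlib 3.10.9 were used for summaries. Gene models and sequences were taken from GENCODE vM1 and mm9. A called list gene is not reported here.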

Additional observations from a re-analysis of the deposited data

Results flagged for a closer look

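In groups of 4 replicates, 60 sets of member values were screened for a replicate far from the other 3, and 8 had one, where chance gives about 1 in 20 for independent replicates. Replicates 3 and 4 share set C and differed far less from each other than from replicates 1 and 2, so that rate does not hold here. Replicate 1 stood apart in 5 of them. Pou5f1 was at 2000.28 TPM in Tet2 input of replicate 1, against 2842.9 to 2901.46 in the other 3. In the same replicate Prdm14 was at 8.67 TPM in Tet2 IP, against 15.56 to 16.53. In replicate 1 of Tet2ΔRBD, Sox2 input was high (507.77 TPM, against 227.57 to 241.07), Nr0b1 input low (27.8 TPM, against 74.37 to 81.52) and Tbx3 IP high (65.86 TPM, against 35.12 to 39.21). Replicate 2 of Tet2 stood apart in the other 3. Nanog was at 342.92 TPM in its input, against 249.98 to 258.75, and Sall4 at 207.14 TPM in its IP, against 113.28 to 121.38. Pou5f1 had a log2(IP/input) of -0.13 there, against 0.09 to 0.13. Replicates 1 and 2 are the sole members of sets A and B in each line, so replicate and set cannot be told apart.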

How the results depend on the processing

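Nanog in Tet2 and Tet2ΔRBD kept its call and direction under every alternative run. Without the replicate block, members past the threshold fell to 0 in Tet1, 1 in Tet2 and 1 in Tet2ΔRBD, and genes to 0, 375 and 46. With limma they were 4 in Tet2 and 1 in Tet2ΔRBD. Within set C alone they were 8, 5 and 5, with 6260 genes in Tet1 and 6568 in Tet2ΔRBD, and Sall4 in Tet2ΔRBD turned from -0.10 to 0.25. DESeq2 called 1578 genes in Tet1. Leaving out 1 replicate gave 0 to 1 members and 0 to 1505 genes in Tet1, 2690 to 5376 genes in Tet2 and 795 to 3419 in Tet2ΔRBD, with 2 members in both.

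For Tet2 minus Tet2ΔRBD, genes past the threshold numbered 0 without the block, 28 with DESeq2, 6 without the filter, 91 in set C and 0 to 14 with a replicate left out. For Tet1 minus Tet2 they numbered 13 with DESeq2, 6 with limma and 314 in set C. For Tet2 against Tet2ΔRBD input, members numbered 0 without the library set, 4 in set C, 0 with the replicate block and 0 to 3 with a replicate left out, and genes 0, 2715, 5 and 33 to 1516, or 858 with DESeq2. For Tet1 against Tet2 input, members numbered 0 without the library set, 7 in set C and 2 to 6 with a replicate left out, and genes 54, 6477 and 1737 to 5822.

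Members above input in every replicate numbered 1 in Tet2 after centring, and 8 in Tet2 and 8 in Tet2ΔRBD when means were compared in place of pairs. They ranged over 2 to 3 in Tet1, 4 to 5 in Tet2 and 0 to 6 in Tet2ΔRBD with a replicate left out. Members with a mean ratio above 0 numbered 8 in Tet2 and in Tet2ΔRBD, 3 and 1 by CPM after TMM, and 4 and 4 after centring, and with a replicate left out 2 to 3 in Tet1, 6 to 8 in Tet2 and 7 to 8 in Tet2ΔRBD. Within Tet2, 6 members kept their rank of input level.

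Of the network genes, calls in Tet1, Tet2 and Tet2ΔRBD numbered 0, 1 and 0 without the block, 23, 22 and 16 in set C, and 0 to 6, 8 to 11 and 4 to 9 with a replicate left out. In Tet1 they numbered 8 with DESeq2, 3 without the filter and 2 with limma, and in Tet2 14 with limma. For Tet2 minus Tet2ΔRBD they numbered 0 without the block, 2 with DESeq2, 2 in set C and 0 to 1 with a replicate left out, and for Tet1 minus Tet2, 2 with DESeq2 and 2 in set C. Of the Oct4 and Sox2 targets they numbered 0, 0 and 0 without the block, 8, 9 and 10 in set C, 0 to 2, 2 to 4 and 1 to 5 with a replicate left out, and 3 in Tet2ΔRBD without the filter. Of the paralogs they numbered 0, 1 and 0 without the block, 10, 9 and 10 in set C, 0 to 3, 4 to 7 and 3 to 5 with a replicate left out, 4 in Tet1 with DESeq2 and 9 in Tet2 with limma. The block changed the calls named here and no count of members in the comparisons between IP effects. The causes were not tested. Tet1 had 2 pairs, and the lone pair left when 1 was dropped is assumed to vary like the other lines.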
